A study of Mus musculus with 4 samples.

Results

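Replication-dependent histone genes were followed in mouse embryonic stem cells (ESCs) by RNA-seq. They were taken by name from the deposited read count table, as the genes named H1f1 to H1f5 and the numbered H2ac, H2bc, H3c and H4c genes, or by their older names that begin with Hist1h to Hist4h. This gave 64 of the 50559 genes in the table. They comprised 5 linker histone (H1), 18 H2A, 17 H2B, 12 H3 and 12 H4 genes. Of the 64, 54 lay on chromosome 13 and 10 on chromosome 3 of the mm39 genome build.

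The study knocked down *Ythdf2*, which encodes a cytoplasmic reader of N6-methyladenosine (m6A) in RNA, and asked whether wild-type YTHDF2 or a form mutated in m6A binding restored gene expression. All libraries were from ESCs of the E14 line grown on gelatin with serum replacement and leukemia inhibitory factor. They were ESCs with a scrambled hairpin and the empty vector (shScram+EV), with a *Ythdf2* hairpin and the empty vector (shYthdf2+EV), with the *Ythdf2* hairpin and wild-type YTHDF2 (shYthdf2+DF2WT), and with the *Ythdf2* hairpin and mutant YTHDF2 (shYthdf2+DF2Mut). Hairpins were delivered by lentivirus in the study and lines were selected with puromycin, and the labels do not say which *Ythdf2* hairpin was used here. Each group had 1 library, so no difference below has a replicate check and no test was run. The libraries are called control, knockdown, DF2WT and DF2Mut below, and lists of 4 values follow that order. Intervals cover counting error only, and ratios compare libraries and not conditions.

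Histones package DNA into nucleosomes, in which pairs of H2A, H2B, H3 and H4 form the core and H1 binds the linker DNA. Replication-dependent histone mRNAs are made mainly in S phase, when new chromatin needs histones. They are the metazoan mRNAs that typically end without a poly(A) tail, in a conserved stem-loop that binds the protein SLBP and is cut by a complex with the U7 small nuclear ribonucleoprotein. Polyadenylated forms also exist, made when transcription runs past the stem-loop to a downstream poly(A) signal or when the last exon is spliced to a distant one. The libraries were prepared from poly(A)+ RNA. They therefore sample mostly polyadenylated forms, and the levels below are not those of all histone mRNA.

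The stem-loop is what sets these genes apart in sequence, so 1 example of each form is shown. A stem-loop was sought as a perfectly paired stem of 6 bases starting with GG around a loop of 4 bases starting with TT. It was present in GENCODE vM21 (mm10) transcripts of 40 of the 62 members that had one, against 0.262% of 55388 other genes. The transcripts are written as DNA, 5′ to 3′, with stem and loop in capitals and up to 5 flanking bases in lower case.
H1f2: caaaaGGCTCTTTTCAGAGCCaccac
H4c18: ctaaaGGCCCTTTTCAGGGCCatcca
H3c3: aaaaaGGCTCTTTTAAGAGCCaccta
H4c9: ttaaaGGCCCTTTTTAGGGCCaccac
H4c2: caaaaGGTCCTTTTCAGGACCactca
H2ac20: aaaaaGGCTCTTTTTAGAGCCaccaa
The form shown for *H1f2* was found in 24 members, that of *H4c18* in 6, that of *H3c3* in 5, those of *H4c9* and *H4c2* in 2 each, and that of *H2ac20* in 1. The forms differ in the stem or in the last bases of the loop, while the opening GG and the TT of the loop are set by the search. In 22 members the annotated transcript ended within 100 bases after the stem-loop, as at the classical processed end. In 18 it ran on further, and 9 of these had a poly(A) signal after the stem-loop. No stem-loop was found in the other 22 members with a transcript, but 13 of those transcripts stop at the stop codon and could not hold one.

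The promoters also share short motifs. RefSeq gave a start for 57 members on GRCm38.p6, and a window from 250 bases before it to 50 after was searched on both strands. The TATA box letters TATAAA were in 59.6% of member windows and 15.7% of all 27025 windows. CCAAT was in 86.0% against 41.1%, in every window of the H1, H2A, H2B and H3 genes and in 3 of 11 H4 windows. The octamer ATTTGCAT, a site read by POU-domain factors, was in 22.8% of member windows against 1.97%. It was found in 7 of 14 H2B and 6 of 17 H2A windows and in no H1, H3 or H4 window. The letters AAACACA, the core of the H1 box, were in 4 of 5 H1 windows against 8.22% of all windows. A match is a description of the letters and not of a bound factor. The 150 bases up to the start are shown for 3 of the most counted members of different types, *H1f2* at chr13:23738657-23738806 (plus strand), *H2bc8* at chr13:23571250-23571399 (plus strand) and *H4c9* at chr13:22041363-22041512 (minus strand), with matches to the motifs on either strand in capitals.
H1f2: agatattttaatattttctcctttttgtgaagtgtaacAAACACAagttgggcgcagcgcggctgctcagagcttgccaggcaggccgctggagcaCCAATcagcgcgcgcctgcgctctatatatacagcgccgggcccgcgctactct
H2bc8: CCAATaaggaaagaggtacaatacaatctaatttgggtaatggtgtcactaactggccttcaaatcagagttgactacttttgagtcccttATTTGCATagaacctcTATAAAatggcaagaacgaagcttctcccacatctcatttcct
H4c9: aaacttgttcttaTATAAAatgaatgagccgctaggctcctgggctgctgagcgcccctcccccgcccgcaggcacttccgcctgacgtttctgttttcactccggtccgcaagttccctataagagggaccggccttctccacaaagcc
The *H1f2* stretch holds CCAAT and the H1 box letters, that of *H2bc8* holds CCAAT, the octamer and the TATA box, and that of *H4c9* holds only TATAAA.

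Total counts were 31533129 to 35742335 reads per library. Mitochondrially encoded genes took 8.44% of them in control and 6.14% to 6.75% in the others. *Ythdf2* itself had 2806 reads in control, 662 in knockdown, 7661 in DF2WT and 6925 in DF2Mut cells, so the labels of the knockdown and of both constructs match its level. The 6 ESC markers, such as *Pou5f1* and *Nanog*, were high in every library, with 109894 to 134180 reads together. Markers of other lineages were low. The 4 primitive endoderm markers had 406, 550, 311 and 458 reads together, the 4 fibroblast markers 346 to 519 with *Col3a1* at 0 to 5, and the 4 trophectoderm markers 1266, 715, 1277 and 632, most of them from *Krt8*. The part of such cells in the values below was not tested. The libraries differed in ways the groups do not explain. The Y-linked gene *Eif2s3y* had 0 reads in control, 225 in knockdown, 35 in DF2WT and 218 in DF2Mut cells, and the median log2 ratio of chromosome 12 genes in knockdown against control was -0.25. Against knockdown, the chromosome 12 median was 0.18 in DF2WT and 0.02 in DF2Mut. In both measures DF2WT lay nearer to control and DF2Mut nearer to knockdown. On the chromosomes of the histone genes, the median in knockdown against control over all other genes compared was 0.03 for both chromosome 13 and chromosome 3.

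The histone genes contributed few reads. All 64 together had 1016 reads in control, 1951 in knockdown, 1338 in DF2WT and 1323 in DF2Mut cells. As counts per 1000000 counts (CPM) without scaling, control cells had 31.4 (29.5 to 33.4, 95% Wilson interval), knockdown cells had 54.6 (52.2 to 57.1), DF2WT cells had 41.1 (38.9 to 43.3) and DF2Mut cells had 42.0 (39.8 to 44.3). The share was highest in knockdown and lowest in control, and the libraries with either construct lay between, with overlapping intervals. With mitochondrially encoded genes left out of the denominator the order was the same, at 34.3, 58.5, 43.8 and 44.7. The table counts the mates of a fragment separately, so intervals on ratios use fragments, taken as the reads divided by 2. The Wilson intervals of the shares use reads and are therefore narrower than they would be on fragments.

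The reads were unevenly spread over the members. At least 1 read was seen for 55, 61, 60 and 56 of the 64 members in the 4 libraries in order, and 48 had reads in all 4 libraries. The 3 reads taken as the floor correspond to 0.0835 to 0.0949 CPM. A mean of at least 10 reads over the libraries was reached by 24 members, and these were compared gene by gene along with the other genes of 18586 that passed this filter. The lowest mean among them was 10.5 reads and the highest among the other 40 was 9.5. *H2bc4* and *H1f2* alone gave 45.1% to 51.0% of the member reads in a library, and *H4c9* was the only other member with a mean of at least 50.

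**Figure D1:**
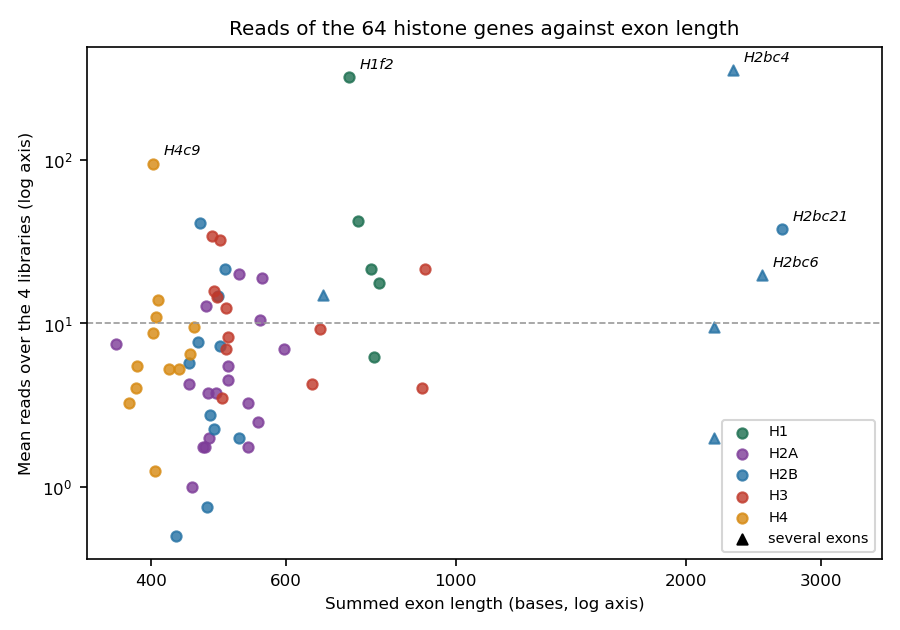
Mean reads over the 4 libraries against summed exon length for all 64 histone genes, on log axes. Colours give the histone type, triangles mark genes with several exons, and the dashed line is the mean of 10 reads used as a filter. *H2bc4*, *H1f2* and *H4c9* stand above the others.

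Most members were short genes of 1 exon. The median summed exon length was 491 bases (360 to 2667), 59 members were at most 1000 bases long, and 59 had 1 exon. The 5 with several exons were all H2B genes, *H2bc4*, *H2bc6*, *H2bc22*, *H2bc23* and *H2bc24*. The 24 compared members had a median length of 512 bases and a median GC content of 55.8%, against 3393 bases and 49.9% over all genes compared. No member's exons overlapped those of another gene in the table. Near-identical copies limit the values instead, because reads that align to several places were dropped. Of windows of 100 bases, a median of 66.3% in the compared members and 50.7% in the others occurred in no other gene's transcripts, and 5 members had no such window. Reads from shared sequence can therefore be missing for most members, except those with all windows their own, among them *H1f1*, *H1f5* and *H2bc21*.

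The most counted gene was *H2bc4* (mm39 chromosome 13, 23868182 to 23876805, plus strand), an H2B gene with several exons and 2303 exonic bases. In GENCODE its transcript ends 8296 bases of genome past the stop codon and holds no stem-loop. It had 238 reads in control, 561 in knockdown, 255 in DF2WT and 370 in DF2Mut cells. The knockdown library was the highest of the 4, the library with wild-type YTHDF2 was close to the control library, and the mutant library lay between. Its log2 ratio was 1.05 (95% counting interval 0.74 to 1.37) in knockdown against control, -1.01 (-1.32 to -0.70) in DF2WT against knockdown, and -0.42 (-0.70 to -0.15) in DF2Mut against knockdown. Between the constructs, the log2 ratio of DF2Mut to DF2WT was 0.59 (0.25 to 0.92). *H2ac6*, which shares the promoter stretch of 239 bases with *H2bc4* on the opposite strand, had 0, 4, 6 and 5 reads.

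*H1f2* (chromosome 13, 23922790 to 23923514, plus strand), a linker histone gene, had the highest level per exon length. It had 262 reads in control, 375 in knockdown, 349 in DF2WT and 305 in DF2Mut cells, or an RPKM (CPM per kilobase of exon) of 11.4 in control and 14.4 in knockdown. Its log2 ratio on knockdown was 0.33 with an interval of 0.0016 to 0.66, and its ratios between the 3 *Ythdf2* hairpin libraries had intervals that held 0. The annotated *H1f2* transcript in GENCODE runs 840 bases past its stem-loop and has a poly(A) signal there. Reads were counted over 725 exonic bases, against 1560 bases in that transcript, so not all of the stretch past the stem-loop was counted.

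*H4c9* (chromosome 13, 22225130 to 22225532, minus strand), an H4 gene of 403 exonic bases, had the largest difference among the 3 most counted members. It had 39 reads in control, 163 in knockdown, 105 in DF2WT and 75 in DF2Mut cells. In RPKM this was 3.06 in control against 11.3 in knockdown. The log2 ratio on knockdown was 1.86 (1.15 to 2.67), while DF2WT stood at -0.51 (-1.04 to 0.01) against knockdown and DF2Mut at -0.94 (-1.54 to -0.37). Both libraries with a construct lay below the knockdown library and above the control library.

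**Figure D2:**
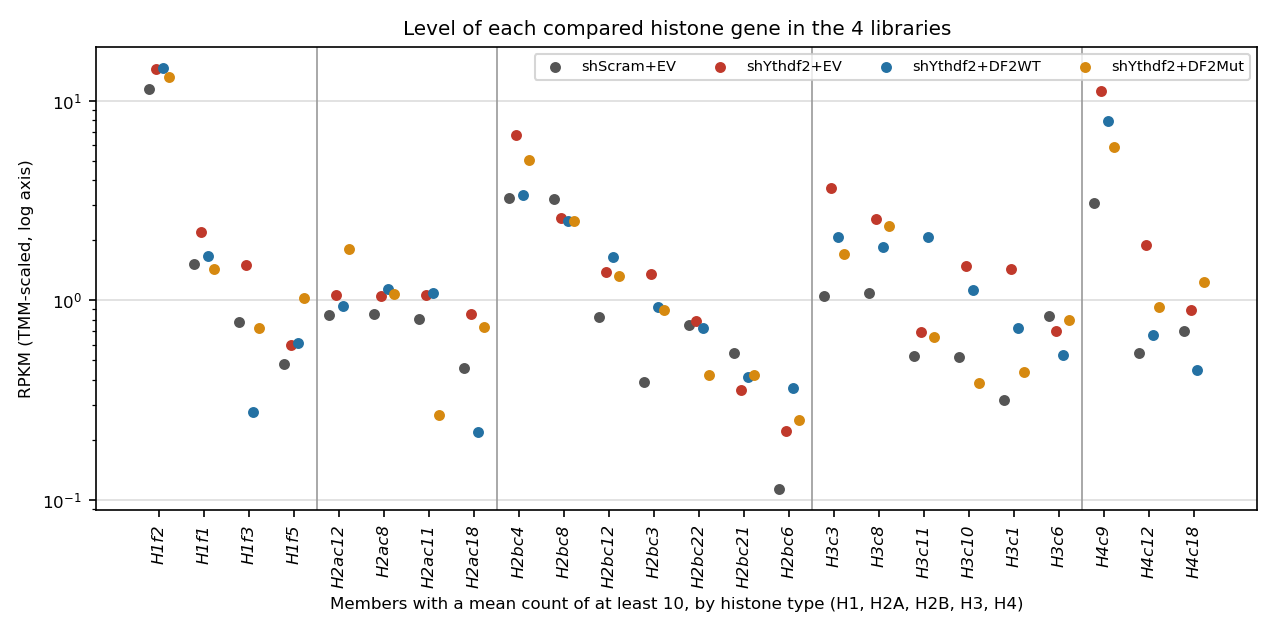
Level of each of the 24 compared members in the 4 libraries, in TMM-scaled RPKM on a log axis, ordered by histone type and by mean level. The knockdown library is the highest for 12 members and the control library the lowest for 14. The 12 include *H3c1*, *H4c12* and *H2ac18*, which passed the filter only through their reads in knockdown. *H1f2*, *H4c9* and *H2bc4* hold the highest levels.

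The order of levels among members was similar in the 4 libraries. Across the 24 compared members, the log2 levels of a pair of libraries had a Pearson correlation of 0.81 to 0.89 and a Spearman correlation of 0.61 to 0.81. The libraries share annotation and gene length here, and the points are genes, not replicates. After *H1f2*, the mean RPKM was 7.02 for *H4c9*, 4.62 for *H2bc4*, 2.69 for *H2bc8*, 2.12 for *H3c3*, 1.96 for *H3c8* and 1.71 for *H1f1*. It was 0.237 for *H2bc6*, the lowest of those compared.

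The question of the knockdown comparison was which transcripts differ when *Ythdf2* is reduced. The histone genes were mostly higher in the knockdown than in the control library. Of the 24 compared, 21 were higher and 3 lower, with a median log2 ratio of 0.63, while the median of all 18586 genes was -0.0015. At least 2-fold higher were 8 of the 24 members (33.3%), against 7.1% of all genes compared, and 0 were at least 2-fold lower, against 5.7%. *H3c1*, *H4c12* and *H2ac18* passed the filter only through their reads in knockdown, so these counts describe the members that passed. With the filter set on DF2WT and DF2Mut alone, which this comparison does not use, 23 members passed, of which 20 were higher and 3 lower, with a median of 0.52. Of those 23, 8 were at least 2-fold higher, against 7.2% of the 18562 genes that passed in the same way. The counting interval lay above 0 for 7 members and below 0 for none. The summed reads of all 64 gave a log2 ratio of 0.76 (0.60 to 0.91), or 1.69-fold (1.51 to 1.88). Without *H2bc4* and *H1f2* it was 0.79 (0.57 to 1.01). In bulk RNA, a different share of cells that make a transcript and a different amount per cell cannot be told apart.

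The 8 members at least 2-fold higher were *H2bc4*, *H4c9*, *H3c3*, *H3c8*, *H2bc3*, *H3c10*, *H4c12* and *H3c1*, of which 4 are H3 genes. *H3c3* had 16 reads in control, 63 in knockdown, 33 in DF2WT and 26 in DF2Mut cells, and its log2 ratio on knockdown was 1.76 (0.64 to 3.12). *H3c8* had 17, 45, 30 and 37 reads in the same order and a ratio of 1.20 (0.03 to 2.55). *H3c1* had 5, 26, 12 and 7 reads and a ratio of 2.09 (0.21 to 4.94). For all 3 the knockdown library was the highest and the control library the lowest, on few reads each. *H4c12* had 7, 28, 9 and 12 reads and a ratio of 1.75 (0.07 to 4.04). *H2bc3*, with 6, 24, 15 and 14 reads, and *H3c10*, with 8, 26, 18 and 6, had ratios of 1.74 and 1.46 and intervals that held 0.

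The 3 members that were not higher were H2B and H3 genes. *H2bc21* (chromosome 3, 96128388 to 96131054, plus strand), the longest compared member, had 46 reads in control, 34 in knockdown and 36 in each library with a construct, a log2 ratio of -0.61 (-1.62 to 0.35) on knockdown. *H2bc8* had 47, 43, 38 and 37 reads and a ratio of -0.31 (-1.23 to 0.59). *H3c6* had 24, 23, 16 and 23 reads and a ratio of -0.24 (-1.55 to 1.05). All 3 intervals held 0. *H1f1*, with 36, 59, 41 and 34 reads, had a ratio of 0.52 (-0.37 to 1.46), which is near the median of the members.

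By type, the knockdown ratio of summed reads was largest for H4 and smallest for H1. H4 had 91 reads in control, 280 in knockdown, 170 in DF2WT and 138 in DF2Mut cells, a log2 ratio on knockdown of 1.44 (0.94 to 1.95). H3 had 105, 256, 172 and 136 reads and a ratio of 1.10 (0.63 to 1.59). H2B had 399, 773, 462 and 553 reads and a ratio of 0.77 (0.52 to 1.02), most of them from *H2bc4*. H2A had 88, 145, 110 and 107 reads and a ratio of 0.53 (-0.03 to 1.11). H1 had 333, 497, 424 and 389 reads and a ratio of 0.39 (0.10 to 0.68). The order of the types was not tested, and the intervals of neighbours in it overlap. H1 made up 32.8% of member reads in control and 25.5% in knockdown, while H4 made up 8.96% and 14.4%.

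**Figure D3:**
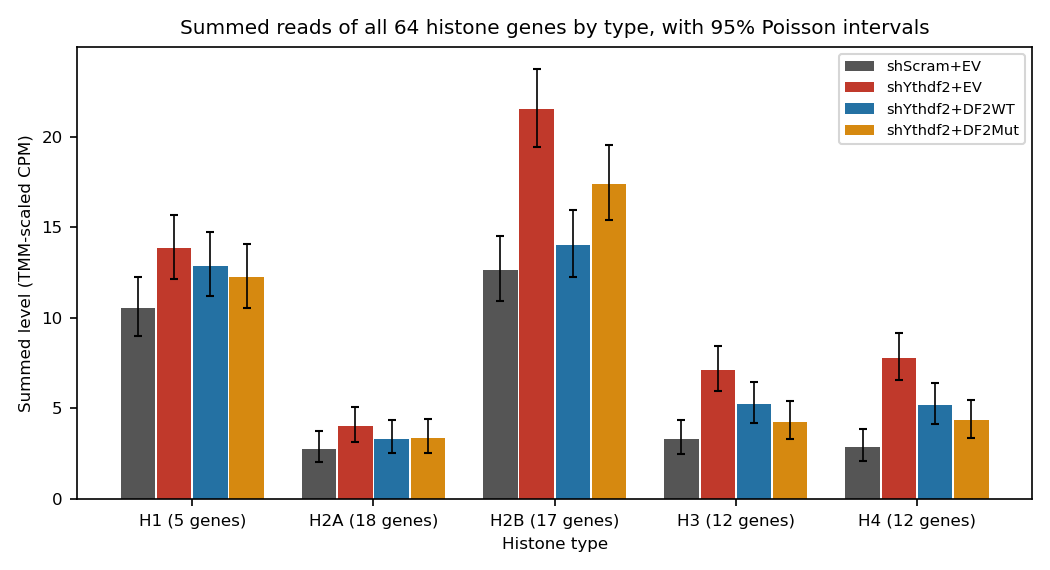
Summed TMM-scaled CPM of all members of each histone type in the 4 libraries, with exact 95% Poisson intervals on read pairs. The knockdown library is the highest for each of the 5 types, and the control library the lowest, and H2B and H1 hold the most reads.

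The members' other features were set beside the knockdown ratio. Members whose annotated transcript ends within 100 bases after the stem-loop had 122 reads in control and 278 in knockdown, a log2 ratio of 1.00 (0.56 to 1.46). Those that run on past it had 458 and 769 reads, a ratio of 0.56 (0.32 to 0.80), and those with no stem-loop found had 426 and 883, a ratio of 0.87 (0.63 to 1.11). These classes are from GENCODE, while reads were counted over RefSeq exons. The counted exons were shorter than the GENCODE transcript for *H1f2* (725 against 1560 bases) and *H4c9* (403 against 727), but not for *H2bc6* (2510 against 2506). Reads past the stem-loop can therefore be missing from the counts. The 5 genes with several exons had 266 and 618 reads, a ratio of 1.03 (0.73 to 1.33), of which *H2bc4* gave most. The 59 with 1 exon had 750 and 1333 reads, a ratio of 0.64 (0.46 to 0.83). The 54 members on chromosome 13 had a ratio of 0.81 (0.65 to 0.98). The 10 on chromosome 3 had 93 and 109 reads and a ratio of 0.04 (-0.55 to 0.64), and 2 of those 10 were compared singly. Members with at least 80% of their windows unique had a ratio of 0.59 (0.35 to 0.83), and those with fewer 0.87 (0.66 to 1.09). These splits share genes and were not tested against each other.

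The 40 members under the filter had at most 18 reads in a library. Together they had 130 reads in control, 257 in knockdown, 188 in DF2WT and 155 in DF2Mut cells, a log2 ratio on knockdown of 0.80 (0.36 to 1.25). Of the 40, 29 had more reads in knockdown than in control, 9 had fewer and 2 had as many. *H4c1* had 4, 18, 3 and 13 reads and the spliced *H2bc23* had 3, 13, 8 and 14. At this depth no ratio of a single one of them is given.

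Head-to-head H2A and H2B genes, which share 1 stretch of promoter, were not equally counted. There were 13 such pairs, 163 to 280 bases apart. Besides *H2ac6* and *H2bc4*, the pair of *H2ac20* and *H2bc21* was uneven, with 5, 0, 1 and 1 reads against 46, 34, 36 and 36. These reads are not per exon length, which was 487 bases for *H2ac6* and 2303 for *H2bc4*, and 468 for *H2ac20* and 2667 for *H2bc21*. *H2ac12* and *H2bc12* were close to each other, with 14, 20, 16 and 30 reads and 13, 25, 27 and 21. *H2ac8* had 15, 21, 21 and 19 reads against 47, 43, 38 and 37 for *H2bc8*.

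The constructs were compared with the knockdown library to ask which transcripts each form of YTHDF2 moves back. These comparisons share the knockdown library with the knockdown comparison, so a high value there enters both. With wild-type YTHDF2, 16 of the 24 members were lower and 8 higher, with a median log2 ratio of -0.39 against 0.0027 for all genes. At least 2-fold lower were 4 (16.7%), against 5.58% of all genes, and 1 was at least 2-fold higher, against 5.15%. The summed reads gave a ratio of -0.42 (-0.56 to -0.27). The 4 were *H2bc4*, *H1f3*, *H4c12* and *H2ac18*, and the last 2 passed the filter only through their reads in knockdown. With the filter set on control and DF2Mut alone, 20 members passed. Of those 20, 3 were at least 2-fold lower, against 5.53% of the 18457 genes that passed in the same way, and 0 were at least 2-fold higher, against 5.1%. *H1f3*, a linker histone gene, had 19 reads in control, 42 in knockdown, 7 in DF2WT and 18 in DF2Mut cells, so DF2WT stood at -2.38 (-4.63 to -0.81) against knockdown. *H2ac18* had 8, 17, 4 and 13 reads and an interval that held 0, and 0% of its windows were unique. *H3c11* went the other way, with 8, 12, 33 and 10 reads and a ratio of 1.54 (0.17 to 3.22). Over the 7 compared members with at least 80% unique windows the median was 0.02, so its direction depended on which members were taken.

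With mutant YTHDF2 against the knockdown library, 17 of the 24 members were lower and 7 higher, with a median log2 ratio of -0.16 against 0.0066 for all genes. At least 2-fold lower were 6 (25%), against 3.38% of all genes, and 0 were at least 2-fold higher, against 2.65%. The summed reads gave -0.38 (-0.53 to -0.24). The 6 were *H2ac11*, *H3c10*, *H3c1*, *H3c3*, *H1f3* and *H4c12*, and the interval lay below 0 for *H3c10* and *H3c3* among them and for *H2bc4* and *H4c9* besides. *H3c1* and *H4c12* passed the filter only through their reads in knockdown. With the filter set on control and DF2WT alone, 21 members passed. Of those 21, 5 were at least 2-fold lower, against 3.5% of the 18502 genes that passed in the same way, and 0 were at least 2-fold higher, against 2.91%. *H3c3* had a ratio of -1.09 (-2.16 to -0.13), and *H2ac11*, with 12, 18, 17 and 4 reads, one of -1.87 (-5.24 to 0.28). Short genes as a whole were lower in the mutant library. The median of the 1744 compared genes of at most 1000 exonic bases was -0.28 there, against 0.04 with the wild-type construct and 0.14 on knockdown. Of those 1744, 165 were at least 2-fold lower in the mutant than in the knockdown library and 60 at least 2-fold higher. After a trend on GC content and exon length was taken off, the members' median with the mutant construct was 0.18, so its direction turned.

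**Figure D4:**
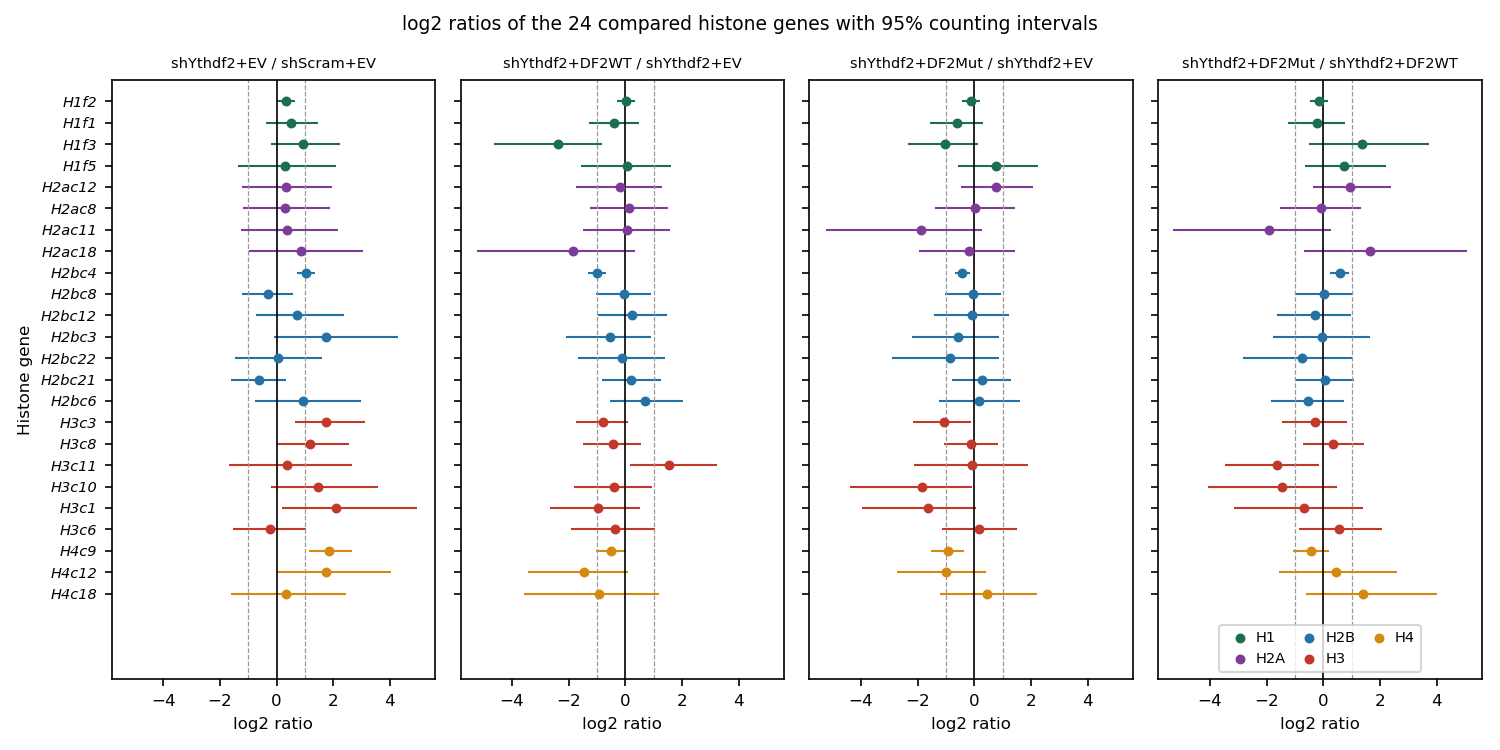
log2 ratios of the 24 compared members in the 4 comparisons, with 95% Clopper-Pearson counting intervals on read pairs. The solid line marks 0 and dashed lines mark 2-fold. In the knockdown panel 21 points lie above 0, and intervals are narrow only for *H2bc4*, *H1f2* and *H4c9*.

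The mutant and wild-type libraries were compared directly to ask what m6A binding changes. They also differed in the *Eif2s3y* reads and the chromosome 12 median given above, and the part of such differences was not tested. The members did not lie to one side, with 11 higher and 13 lower in the mutant library and a median log2 ratio of -0.07, which turned to 0.03 over the 28 members that passed the filter on the libraries not compared. At least 2-fold higher were 3 (12.5%), against 5.4% of all genes, and at least 2-fold lower were 3, against 6.21%. The summed reads gave a log2 ratio of 0.03 (-0.12 to 0.19), or 1.02-fold (0.92 to 1.14). Without *H2bc4* and *H1f2* it was -0.13 (-0.35 to 0.09), and the median was 0.46 once the trend on GC content and length was taken off. The counting interval lay above 0 for *H2bc4* and below 0 for *H3c11*, whose ratio was -1.63 (-3.47 to -0.17). By type, the mutant library was higher for H2B, at 0.31 (0.05 to 0.57), which holds *H2bc4*, and the intervals of the other 4 types held 0.

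Over the 4 libraries, 12 of the 24 members had their highest level in knockdown, against 22.3% of all genes, and 14 had their lowest in control, against 25% of all genes. The 12 include *H3c1*, *H4c12* and *H2ac18*, which passed the filter only through their reads in knockdown, so the filter enters this count. DF2WT was the highest library for 6 members and the lowest for 5, and DF2Mut the highest for 3 and the lowest for 4.

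In the knockdown comparison, the 5 lists of histone-related and cell cycle genes had medians closer to 0 than the members. Of the 12 replication-independent histone genes, which are expressed through the cell cycle as polyadenylated mRNAs, 10 were compared. Their median log2 ratio on knockdown was 0.22 (-0.50 to 0.46 over the genes), with 7 higher, 3 lower and none past 2-fold. With mutant YTHDF2 their median was -0.28 against knockdown and -0.29 against DF2WT, farther from 0 than that of the members. *H2aj*, an H2A variant gene, had a ratio of 0.46, *Cenpa*, the centromeric H3, one of 0.36, and the linker histone gene *H1f10* one of -0.50. *H3f3b*, which encodes the variant H3.3, had 27061 reads in control and 37571 in knockdown. All 12 together had 67447 to 92011 reads per library, far above the members.

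The genes that transcribe and process histone mRNA had 53583 to 60027 reads together per library. Of 17, all compared, 8 were higher and 9 lower on knockdown, with a median of -0.02 and none past 2-fold. *Slbp*, whose protein binds the stem-loop, had 4515, 5502, 5041 and 4486 reads and a ratio of 0.10. *Lsm10* and *Lsm11*, subunits of the U7 particle, had ratios of -0.06 and 0.13, and *Npat*, the coactivator of histone transcription, one of -0.11. *Cpsf3*, the endonuclease that cuts at the 3′ end, had 4661, 3298, 4342 and 2809 reads and the lowest ratio of the list, -0.68. This gene lies on chromosome 12, whose median on knockdown was -0.25. *Cstf2t* had 0.49 and *Coil*, the marker of Cajal bodies, 0.40.

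The 24 S phase genes had a median of 0.03 on knockdown, with 13 higher, 11 lower and none past 2-fold. *Tyms*, which makes thymidylate, had a ratio of 0.49, *Pola1*, the catalytic subunit of polymerase alpha, one of 0.46, and *E2f1* one of -0.61. The 10 mitosis genes had a median of -0.11, with *Ccnb2* at -0.37, *Mki67* at -0.36 and *Bub1* at -0.27. The 18 histone chaperone genes had a median of -0.04, with *Asf1a* at 0.42, *Daxx* at 0.41 and *Hjurp* at -0.29. None of these 3 lists held a gene past 2-fold in any of the 4 comparisons.

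RNAs that carry no poly(A) tail were listed because they mark how much of such RNA entered the libraries. *Rn7sk*, the 7SK RNA, had 29 reads in control, 121 in knockdown, 41 in DF2WT and 34 in DF2Mut cells, a log2 ratio on knockdown of 1.86. *Terc*, the telomerase RNA, had 7, 37, 19 and 15 reads and a ratio of 2.14. Both were highest in knockdown, as was the sum of the members. The 10 listed RNAs in the table other than *Rn18s-rs5* had 45, 189, 79 and 77 reads together, a ratio of 1.88 (1.21 to 2.62), although 8 of them were under the filter and *Rny3* was at 0 in every library. *Rn18s-rs5*, an 18S ribosomal RNA copy, had 8165, 7003, 9246 and 5135 reads and a ratio of -0.41. The 71 compared small nucleolar and Cajal body RNA genes had a median of -0.0015. *H2bu2*, a histone gene outside the naming rule, had 4, 19, 10 and 8 reads. The part of such RNA in the members' ratios was not tested.

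**Figure D5:**
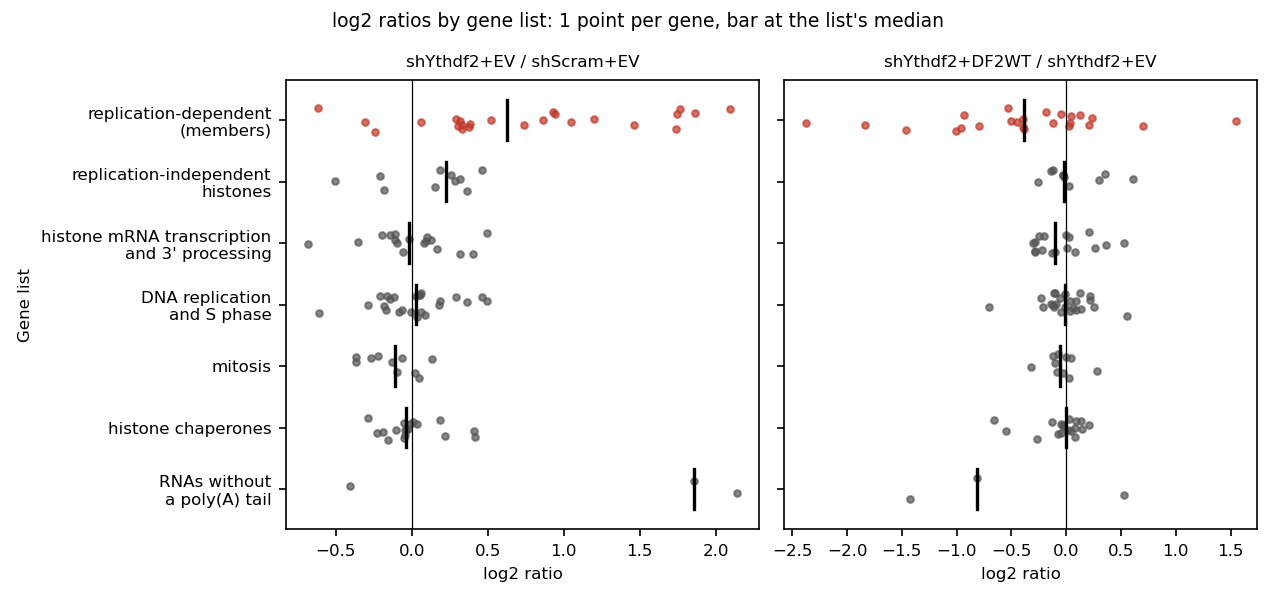
log2 ratios of the compared genes of each list in the knockdown comparison and with wild-type YTHDF2, 1 point per gene, with a bar at the median. In the knockdown panel the members have a median of 0.63, while the 5 lists of histone-related and cell cycle genes have medians from -0.11 to 0.22, and 2 of the 3 RNAs without a poly(A) tail lie above 1.8.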

How the data were processed

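Poly(A)+ RNA-seq reads of 4 libraries, 1 per group by its title, were used as gene counts. Per the file headers, the authors ran featureCounts 2.0.3 with UCSC's mm39 RefSeq gene models to get the counts, over exons by symbol, unstranded, counting reads and not pairs, with multi-mapping reads dropped. The submitters' processing notes name fastp 0.19.4, HISAT2 2.2.1, DESeq2 1.40.2 and mm10, and coordinates here follow the header. Libraries were scaled with TMM factors (edgeR 4.0.16, R 4.3.3) of 0.976, 1.01, 1.01 and 1.01. Genes averaging 10 counts or more were compared, with a prior count of 0.5 before log2 ratios, and 2-fold was the threshold for counting genes. Intervals are 95% Clopper-Pearson on read pairs for ratios, Wilson on reads for shares and Poisson on read pairs for sums. Reads are not independent molecules, so intervals and the floor of 3 reads cover counting error only. Members and lists were chosen with earlier results of these data known. The text gives the 4 highest members of each type by CPM, the largest ratios among members averaging 50 counts or more, the longest and shortest, and the 3 largest ratios of each other list, and names further members after their values were seen. The scripts were tested on simulated data. Older symbols were matched through RefSeq synonyms, which gave GC content for 62 of 64 members and 91.3% of the genes compared.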

Additional observations from a re-analysis of the deposited data

How the results depend on the processing

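In all, 916 alternative values were computed for 176 results, of which 841 stayed within their tolerance, 68 moved further and 7 turned direction. No paired analysis was possible because each group had 1 library and no replicate number was shared. The genome-wide form of the planned filter on unique windows was not run, since no genome of this build was used here, and it was replaced by windows unique among GENCODE vM21 transcripts. That filter, the filter on the libraries not compared, leaving out the 2 most counted members and the sums under other scalings were added after seeing the data. Total-count, DESeq2 and upper-quartile scaling turned no direction and shifted the median of all genes by at most 0.04. In order of the comparisons (knockdown against control, DF2WT and DF2Mut against knockdown, DF2Mut against DF2WT), taking off a trend on GC content and exon length gave medians of 0.46, -0.54, 0.18 and 0.46, with 3 members at least 2-fold higher and 3 lower in the DF2Mut comparison and 7 and 1 between the constructs. A mean count of at least 1 gave medians of 0.90, -0.39, -0.51 and 0.00541, with 28 members higher and 4 lower, 11 and 19, 3 and 22, and 13 and 13. A mean count of at least 50 left 3 members, with medians of 1.05 on knockdown and -0.42 with DF2Mut, 2 higher on knockdown, 0 higher and 1 lower with DF2WT, 0 lower with DF2Mut, and 0 either way between constructs. A prior count of 5 left 3 lower with DF2Mut and 1 higher between constructs. A 1.5-fold threshold gave 1 lower on knockdown, 2 higher and 7 lower with DF2WT, 2 higher with DF2Mut, and 6 and 5 between constructs. Requiring the counting interval to exclude 0 left 2 lower with DF2WT, 2 lower with DF2Mut, and 0 higher and 1 lower between constructs. The mean count filter applied to the 2 libraries not compared gave medians of 0.52, -0.30, -0.12 and 0.0298, with 0 members higher with DF2WT and 6 higher between constructs. Summed counts gave -0.38 in place of the median with DF2Mut and 0.0332 between constructs, the latter turning to -0.13 without the 2 most counted members. Over members with unique windows the DF2WT median was 0.0234. Without mitochondrially encoded genes the members' shares were 34.3, 58.5, 43.8 and 44.7 CPM. The causes were not tested, beyond the fewer genes that the filters leave. Depth is a limit besides the 1 library per group, since 61 of 64 members had fewer than 50 reads on average.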
